A study of Arabidopsis thaliana with 16 samples.

Results

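Of 11799 Arabidopsis thaliana genes that the array annotation names only by a locus tag, 47 (0.398%) gave a higher signal in wild-type seedlings under strong shade than under milder shade and form the group described here. They were picked from the measured values themselves. Each had a mean log2 intensity at least 0.8 higher in wild-type strong shade than in wild-type shade, had all 3 wild-type strong shade arrays above all 3 wild-type shade arrays, and had a phyA minus wild-type difference in shade above -1. Where a gene had more than 1 probe set, which held for 1 of the 47, the brightest over the 16 arrays stood for it. Of 54 locus-tag genes that passed the 0.8 threshold, 4 were left out because their wild-type arrays overlapped and 3 because of the limit on phyA. The wild-type step of these genes between the shades is therefore a description throughout, and counts of calls for it are given only for scale.

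The mutant seedlings carried phyA-211, a null allele of the phytochrome A gene in the Col-0 background, and the others were Col-0 wild type (WT). All grew for 5 days in continuous white light and were then kept for 24 h in strong shade, in shade or in white light. The strong shade LEDs gave 30 µmol m-2 s-1 of far-red beside 3 of red and 3.5 of blue light (red to far-red ratio, R:FR, 0.1). The shade LEDs gave 21 of far-red beside 13 of red and 3.5 of blue in the same unit (R:FR 0.7). White light measured about 45 in that unit, and its source was not given as LED, so a difference from white light covers every change of light. There were 3 arrays for each genotype in each shade and 2 for each in white light, each array made from RNA of whole seedlings, so fewer cells of a type and less RNA per cell cannot be told apart. The design text calls the replicates biological but gives neither the number of seedlings per array nor separate batches, so p-values measure the spread between these samples. PHYA itself had no probe set with it as the single listed gene, so the genotype labels could not be checked on it.

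Phytochromes are photoreceptors that red light switches to an active form and far-red light switches back. Leaves absorb red light and pass far-red light, so a low R:FR tells a seedling that other plants are near, and loss of active phytochrome B then releases stem growth. Phytochrome A works differently: it signals under far-red-rich light and is known in Arabidopsis for holding back elongation in deep shade. The reference table lists 46 of the 47 genes as protein-coding and AT4G16870 as a pseudogene. It gives none of them a symbol, a described product or a named synonym, so they stay under their locus tags here and no role is assigned to them. They lie on all 5 nuclear chromosomes, with 16 on chromosome 1, 13 on chromosome 2, 6 on chromosome 3, 8 on chromosome 4 and 4 on chromosome 5. In gene order AT1G19530 and AT1G19540 are direct neighbours, and AT4G22470 and AT4G22490 are separated by 2 other genes.

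Among the phyA samples, 2 arrays stood apart from their labelled groups. Across probe sets, array 3 of phyA shade had a Pearson correlation of 0.986 with each other array of its group, but of 0.993 to 0.994 with phyA strong shade arrays 1 and 2. Array 3 of phyA strong shade was likewise at 0.979 to 0.983 with its own group and at 0.991 to 0.992 with phyA shade arrays 1 and 2. The 47 genes showed the same: phyA strong shade array 3 lay below both other arrays of its group in 35 genes (41.7% of all probe sets did so), and phyA shade array 3 lay above both others of its group in 37 (39.9% of all probe sets). With labels taken as given, phyA strong shade array 3 was below phyA shade array 3 in 38 of the 47 genes (51.5% of all probe sets). Whether the labels of these 2 arrays were exchanged was not tested, and the phyA strong shade minus shade difference over all arrays depends on them. The counts and medians of the phyA comparisons are therefore given with all arrays and without these 2.

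The WT values show how the genes were chosen. AT3G22060 had log2 intensities of 5.44, 5.32 and 7.05 in WT strong shade, against 3.19, 3.14 and 3.38 in WT shade, a difference of 2.70 ± 0.385 (SE of the fit). AT1G66100 had 7.86, 7.67 and 8.09 in WT strong shade, against 4.84, 5.07 and 5.70 in WT shade, a difference of 2.67 ± 0.426. The third member by size, AT3G62950, had 6.03, 6.55 and 6.40 in WT strong shade, against 3.74, 3.84 and 5.18 in WT shade. The third WT shade array was well above the other 2. The SE of its difference of 2.08, which pools the spread of all groups, was 0.762 over all arrays and 0.296 without the third phyA arrays. In AT2G43620 the spread lay on the other side, with 4.20, 3.52 and 5.83 in WT strong shade, against 2.56, 2.59 and 2.56 in WT shade. The third WT strong shade array was the highest of its group in AT3G22060, AT2G43620, AT2G36690 and AT2G17740, and stood above the next array by more than the other 2 differed from each other. The gap between the lowest WT strong shade array and the highest WT shade array ran from 0.091 in AT2G39210 to 1.97 in AT1G66100, with a median of 0.63 over the 47 genes.

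The other 6 of the 10 genes with the largest steps also had WT groups that did not overlap, by the choice. AT4G37220 stood at 7.83, 8.16 and 8.18 in WT strong shade, against 6.58, 5.66 and 6.49 in WT shade, and AT1G25400 at 6.53, 6.96 and 6.75, against 4.95, 4.91 and 5.42. For AT2G36690 the WT strong shade values were 4.86, 4.55 and 5.72, against 3.47, 3.40 and 3.37 in WT shade, and for AT2G17740 they were 3.12, 3.55 and 4.81, against 2.59, 2.16 and 2.34. AT1G22690 gave 8.19, 8.20 and 7.76 in WT strong shade, against 5.91, 6.63 and 6.74 in WT shade, and AT1G19540 gave 7.61, 8.09 and 7.64, against 6.56, 5.98 and 6.53. Over the 47 genes the step ran from 0.80 to 2.70 with a median of 1.02, whereas the median over all 22746 probe sets was 0.012. limma called 17 of the 47 higher at adjusted p under 0.05, where 0.268% of all probe sets were called higher, and 44 in the fit without the third phyA arrays, where 2.3% were. Both counts follow from the choice of genes.

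At the 0.8 threshold the nearest members inside were AT2G39210, AT2G04795 and AT3G10120, with steps of 0.803, 0.804 and 0.805. The nearest genes outside that met the other conditions were AT1G55960 at 0.799, AT1G49180 at 0.790 and AT1G73110 at 0.768. At the limit of -1 on phyA minus WT in shade, AT1G57770 at -0.96 and AT4G12830 at -0.89 lay inside, and AT4G21870 at -1.09, AT2G37540 at -1.21 and AT1G78995 at -2.03 lay outside. The 4 genes whose WT arrays overlapped were AT1G50040, AT4G16563, AT5G39580 and AT1G65490, with steps of 1.08, 1.00, 0.94 and 0.91.

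**Figure D1:**
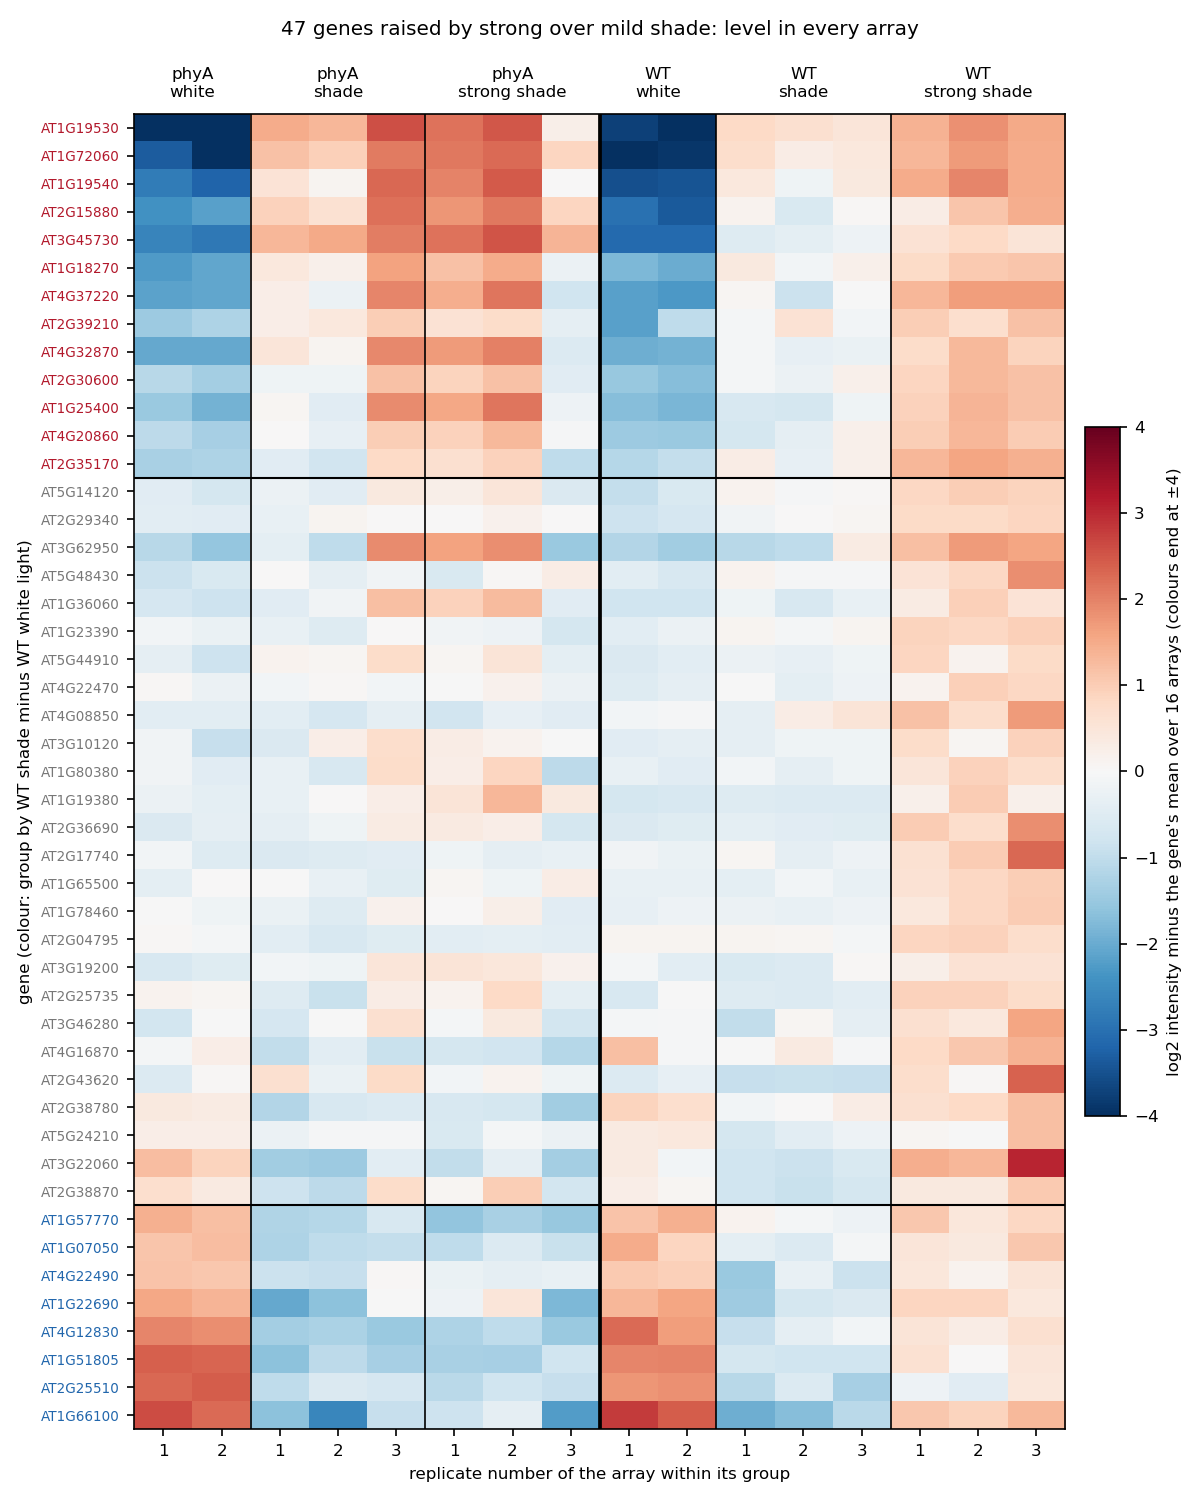
Level of the 47 genes (rows) in each of the 16 arrays (columns), drawn as the log2 intensity minus the gene's own mean over all arrays, with red above and blue below that mean. Gene names in red, grey and blue mark the 13, 26 and 8 genes that were at least 1 log2 unit higher, within 1 unit and at least 1 unit lower in WT shade than in WT white light, and the third phyA shade array looks like phyA strong shade arrays 1 and 2 in most red-named rows.

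The white-light arrays, which played no part in the choice, separated the 47 genes into patterns that the strong shade step alone does not show. In 13 genes the WT shade mean was at least 1 log2 unit above the WT white-light mean, in 8 it was at least 1 unit below, and in 26 it lay within 1 unit. This split was made after the values had been seen, and since the WT shade arrays were chosen to be low, it is a description. In the 13 genes higher in shade, strong shade lay beyond shade, on the same side of white light. AT1G19530 stood at 3.82 and 3.50 in WT white light, at 8.36, 8.21 and 8.07 in WT shade and at 8.95, 9.40 and 9.08 in WT strong shade. AT1G72060 stood at 3.13 and 3.36 in WT white light, 7.96, 7.57 and 7.70 in WT shade and 8.60, 8.96 and 8.73 in WT strong shade. Both genes had a larger difference in mean between white light and shade than between the shades. The other 11 genes of this kind were AT1G19540, AT2G15880, AT3G45730, AT1G18270, AT4G37220, AT2G39210, AT4G32870, AT2G30600, AT1G25400, AT4G20860 and AT2G35170. The WT strong shade minus white light differences of all 13 ran from 2.49 to 5.52, with a median of 2.93.

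In the 8 genes lower in shade the order of the lights differed, and strong shade lay between shade and white light. AT1G66100 stood at 9.57 and 9.22 in WT white light, 4.84, 5.07 and 5.70 in WT shade and 7.86, 7.67 and 8.09 in WT strong shade. AT1G51805 stood at 6.17 and 6.17 in WT white light, 3.50, 3.40 and 3.39 in WT shade and 4.80, 4.22 and 4.70 in WT strong shade. The others were AT2G25510, AT4G12830, AT1G22690, AT4G22490, AT1G07050 and AT1G57770. In all 8 the WT strong shade mean was below the WT white-light mean, by -0.50 to -1.86, so a higher signal in strong shade than in shade here meant a smaller departure from white light. The 26 remaining genes had a median WT shade minus white light difference of 0.069, and all 26 had a WT strong shade mean above the white-light mean, by 0.037 to 2.77. AT2G17740 is an example, with 2.38 and 2.26 in WT white light, 2.59, 2.16 and 2.34 in WT shade and 3.12, 3.55 and 4.81 in WT strong shade. AT1G78460 likewise had 6.38 and 6.51, 6.48, 6.43 and 6.51 and 7.14, 7.56 and 7.73 in the same order of lights, so only strong shade stood apart.

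The phyA strong shade and phyA white-light arrays did not enter the choice of genes, so the comparison between them is a test. In the limma fit over all 22746 probe sets, 17 of the 47 genes (36.2%) rose in phyA strong shade and 12 (25.5%) fell, where 21.7% and 20.3% of all probe sets were called higher and lower. All 13 genes higher in WT shade rose in phyA, with differences of 1.45 to 6.19, and all 8 genes lower in WT shade fell, with differences of -1.41 to -3.59. Of the 26 remaining genes, 4 rose and 4 fell, and without the third phyA arrays 10 rose and 4 fell. The phyA arrays and the WT arrays gave the same direction against white light in every gene of the first 2 kinds, and these comparisons have no array in common. Those 2 kinds were, however, picked for a WT shade difference from white light of at least 1 log2 unit. The share of all probe sets with such a WT difference that moved likewise in phyA is not given, so their counts are a description.

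The 4 largest rises were those of AT1G19530, AT1G72060, AT3G45730 and AT1G19540. AT1G19530 had 9.72, 10.05 and 7.81 in phyA strong shade, against 3.56 and 2.45 in phyA white light, a difference of 6.19 ± 0.514 (limma adjusted p = 9.3e-08). AT1G72060 had 9.37, 9.52 and 8.13, against 3.92 and 3.23, a difference of 5.43 ± 0.364 (adjusted p = 9.65e-09). In each of these genes the phyA groups did not overlap, and phyA strong shade array 3 was the lowest of its group. AT3G45730 had 7.50, 7.85 and 6.67 in phyA strong shade, against 2.67 and 2.47 in phyA white light, a difference of 4.77 ± 0.263 (adjusted p = 1.32e-09). Its neighbour in size, AT1G19540, had 8.13, 8.60 and 6.16, against 3.35 and 2.93, a difference of 4.50 ± 0.602 (adjusted p = 1.55e-05). The adjacent genes AT1G19530 and AT1G19540 therefore both rose. The other rises ran from 0.51 in AT2G29340 to 3.88 in AT2G15880, and AT1G36060, AT1G19380 and AT3G19200 rose with a WT shade mean close to white light. In AT3G62950 the difference was 2.00 ± 0.852 (adjusted p = 0.0737), and it became 3.07 ± 0.363 (adjusted p = 3.92e-06) without the third phyA arrays.

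The 4 largest falls were those of AT1G66100, AT1G51805, AT2G25510 and AT4G12830. AT1G66100 had 5.95, 6.43 and 4.54 in phyA strong shade, against 9.41 and 9.04 in phyA white light, a difference of -3.59 ± 0.476 (adjusted p = 1.42e-05). AT1G51805 had 2.91, 2.88 and 3.40, against 6.59 and 6.53, a difference of -3.50 ± 0.194 (adjusted p = 1.42e-09). AT2G25510 had 6.77, 7.03 and 6.91, against 10.13 and 10.25, and AT4G12830 had 2.96, 3.17 and 2.72, against 6.16 and 6.07 (adjusted p = 2.38e-08 and 1.14e-08). The groups were far apart in all 4, and the phyA strong shade arrays lay close together except in AT1G66100. AT3G22060 also fell in phyA, with 3.02, 3.63 and 2.62 in strong shade, against 5.23 and 4.87 in white light, a difference of -1.96 ± 0.431 (adjusted p = 0.00147). In WT the same gene was higher in strong shade than in white light by mean, at 5.94, against 4.11. AT2G38780, AT4G16870 and AT2G04795 fell too, at -1.28, -0.96 and -0.39. Without the third phyA arrays 23 of the 47 rose and 12 fell (23.4% and 21.6% of all probe sets).

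Root markers moved with this comparison and their part in it was not tested. Of 5 such genes 3 were measured, EXPA7 and EXPA18 of root hair cell walls and PYK10, a root beta-glucosidase, and all 3 fell in phyA strong shade against phyA white light. Their summed level, as log2 of the summed intensity, was 9.61 to 10.79 in phyA strong shade, 9.85 to 10.35 in phyA shade and 11.26 to 11.30 in phyA white light. In WT it was 10.17 to 10.40 in strong shade, 10.42 to 10.83 in shade and 11.08 to 11.29 in white light. Between the shades 0 of the 3 were called in either genotype with all arrays. PYK10 was called lower in phyA strong shade than in phyA shade without the third arrays, at -0.58 ± 0.152 (adjusted p = 0.0471).

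**Figure D2:**
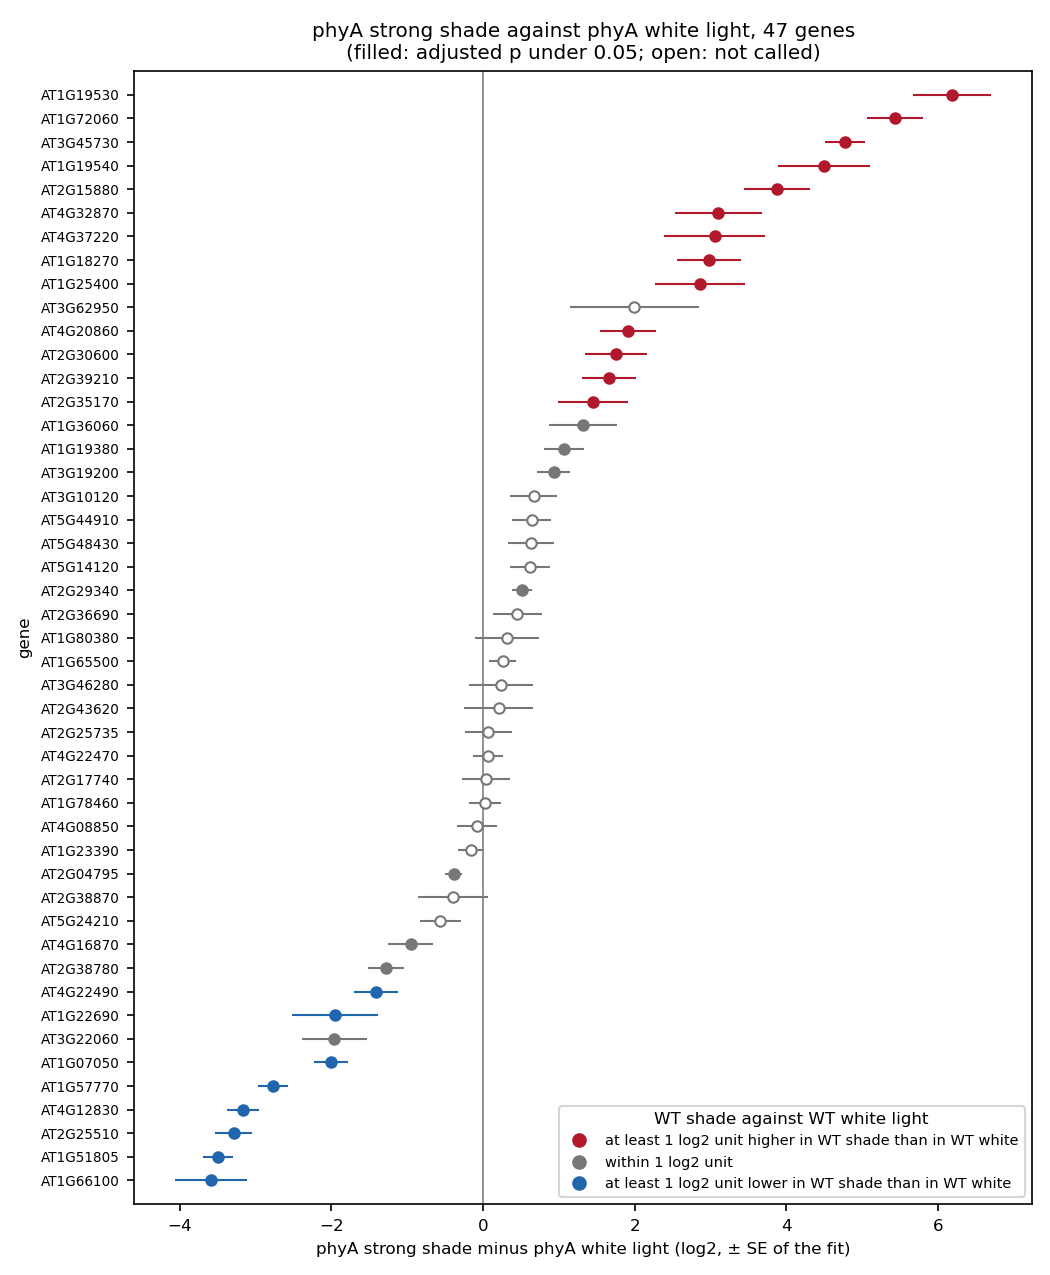
phyA strong shade minus phyA white light for the 47 genes, as the log2 difference with the standard error of the limma fit, filled where adjusted p was under 0.05. Red and blue points are the 13 genes higher and the 8 genes lower in WT shade than in WT white light, and all of them are filled, on the positive side for red and the negative side for blue.

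Whether strong shade raises these genes over shade without phytochrome A was the next question. With all arrays limma called 0 of the 47 in phyA strong shade against phyA shade, and 0.0% of all probe sets. At unadjusted p under 0.05 there were 452 probe sets higher and 400 lower, among them 2 and 1 of the 47. The phyA strong shade mean was above the phyA shade mean in 35 of the 47, with differences from -0.47 to 0.76 and a median of 0.19, beside a median of 0.013 over all probe sets. All 3 phyA strong shade arrays lay above all 3 phyA shade arrays in 3 genes (4.48% of all probe sets), and below in 1 (3.2%). The phyA shade arrays had entered the choice only through the limit on phyA minus WT, which removed genes with low phyA shade values. With that limit dropped, so that the choice rested on WT arrays alone, there were 50 genes, 0 were called and the median difference was 0.17.

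Values of single genes show where the spread lay. AT3G62950 had 6.46, 6.69 and 3.37 in phyA strong shade, against 4.46, 3.83 and 6.74 in phyA shade, a mean difference of 0.50 ± 0.762. AT4G37220 had 7.97, 8.65 and 5.72 in phyA strong shade, against 6.78, 6.27 and 8.47 in phyA shade, a mean difference of 0.27 ± 0.594. In both, strong shade arrays 1 and 2 and shade array 3 were high, and strong shade array 3 and shade arrays 1 and 2 were low. The same held for AT1G25400, with 7.15, 7.75 and 5.39 in phyA strong shade, against 5.67, 5.14 and 7.48 in phyA shade, and for AT1G19540, with 8.13, 8.60 and 6.16, against 6.70, 6.24 and 8.43. AT1G22690 had 7.11, 7.83 and 5.53 in phyA strong shade, against 5.28, 5.70 and 7.31 in phyA shade, again with the third arrays on the far sides. AT1G66100 had 5.95, 6.43 and 4.54 in phyA strong shade, against 5.15, 4.16 and 5.86 in phyA shade, where the ranges overlapped as well. Other genes showed little movement in any phyA array under LED light. AT2G17740 had 2.36, 2.18 and 2.22 in phyA strong shade, against 1.96, 2.02 and 2.07 in phyA shade, and AT1G51805 had 2.91, 2.88 and 3.40 in phyA strong shade, against 2.56, 3.15 and 2.87 in phyA shade. AT4G08850 had 4.43, 4.87 and 4.73 in phyA strong shade, against 4.77, 4.52 and 4.84 in phyA shade, where the WT values were 6.35, 5.88 and 6.91 in strong shade and 4.83, 5.48 and 5.70 in shade.

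**Figure D3:**
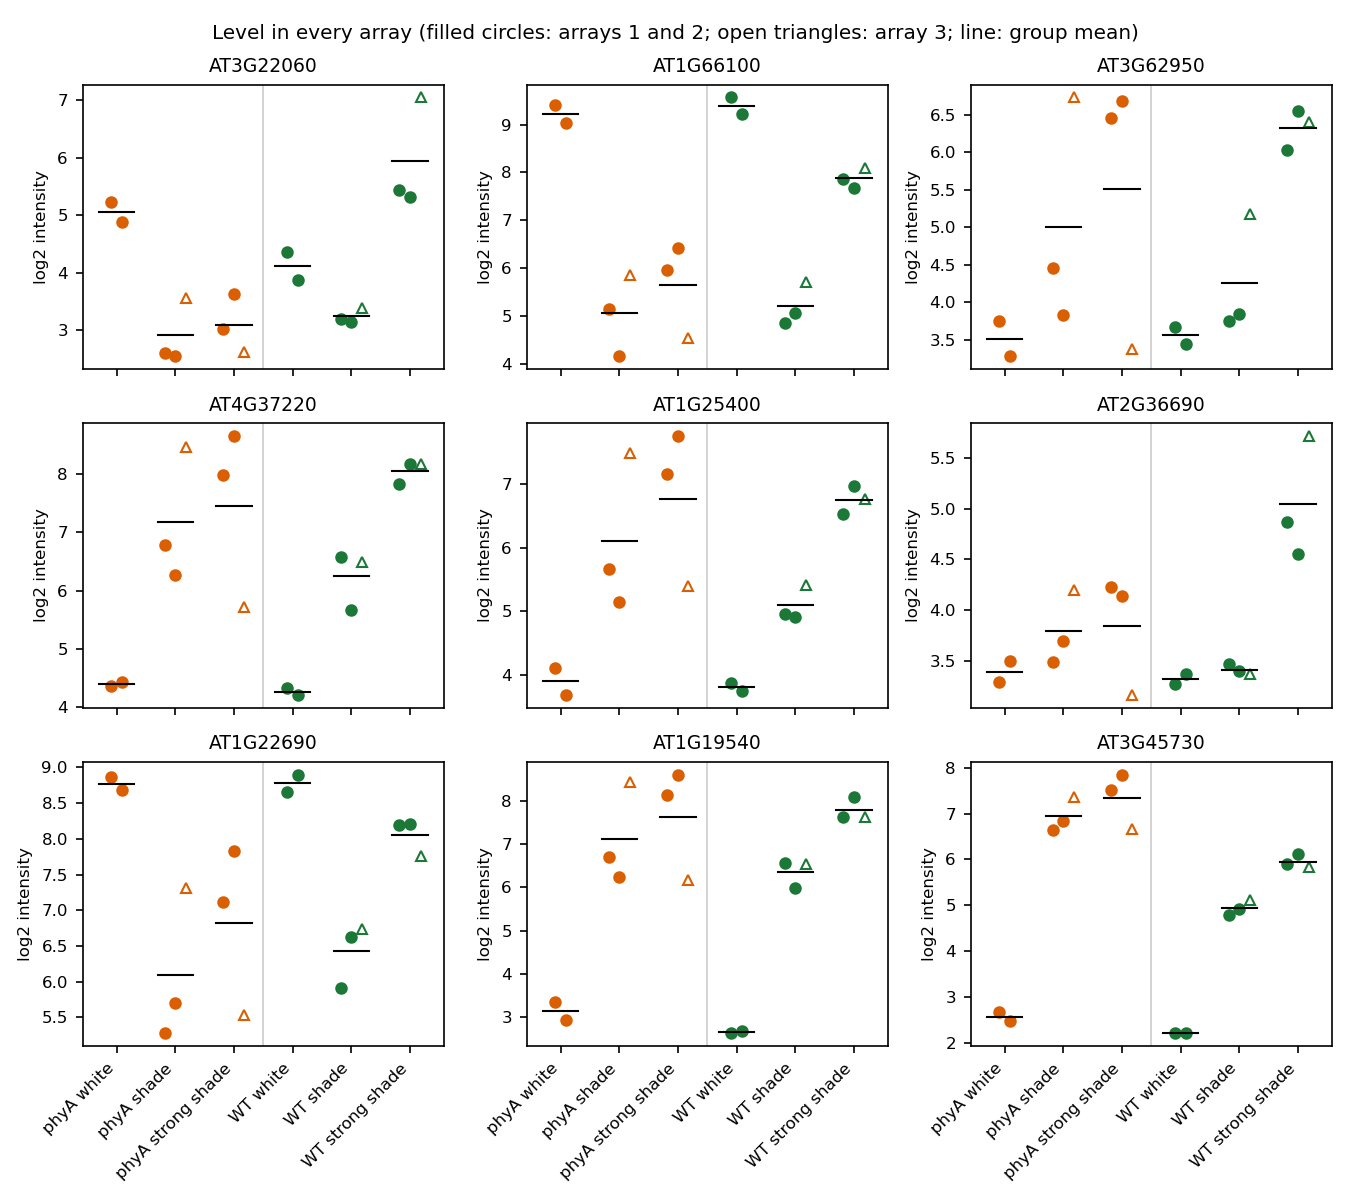
Log2 intensity of 9 of the 47 genes in every array, with phyA groups in orange and WT groups in green, lights from white to strong shade, filled circles for arrays 1 and 2, open triangles for array 3 and a line at the group mean; the axis of each panel has its own range and does not start at 0. In all 9 panels the phyA triangle is the highest point of its group in shade and the lowest point of its group in strong shade. Both held in 32 of the 47 genes, and the share of all probe sets is not given.

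Without the third phyA arrays, 20 of the 47 genes (42.6%) were called higher in phyA strong shade than in phyA shade and 0 lower, where 1.36% and 2.48% of all probe sets were called. The third phyA arrays stood apart in their correlations over all probe sets, but earlier work on these values had also shown that they opposed the WT step, so this count is partly fixed by leaving them out, and each group then held 2 arrays. The median difference over the 47 was 0.59, and 41 of them were above 0. Arrays 1 and 2 of phyA strong shade both lay above arrays 1 and 2 of phyA shade in 32 genes (27.3% of all probe sets) and below them in 1 (21.7%). AT3G62950 led at 2.43 ± 0.363 (limma adjusted p = 0.00207), followed by AT1G25400 at 2.04 ± 0.237 (adjusted p = 0.000627), AT1G22690 at 1.99 ± 0.271 (adjusted p = 0.00124) and AT1G19540 at 1.90 ± 0.236 (adjusted p = 0.000863). Of the 13 genes higher in WT shade than in WT white light 11 were among these calls, the exceptions being AT1G19530 at 0.91 (adjusted p = 0.0733) and AT2G39210 at 0.32 (adjusted p = 0.668). Of the 8 genes lower in WT shade, AT1G66100 and AT1G22690 were called, and of the 26 others 7 were called, AT3G62950, AT2G38870, AT2G25735, AT1G19380, AT1G36060, AT1G80380 and AT5G14120. Whether these kinds of gene differ in the share called was not tested.

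Some genes with a large WT step had a small one in phyA even without the third arrays. AT3G22060 had a phyA difference of 0.75 ± 0.405 (adjusted p = 0.385), beside a WT step of 2.70. AT2G43620 had -0.18 ± 0.495 (adjusted p = 0.911), beside 1.95 in WT, and AT2G17740 had 0.28 ± 0.358 (adjusted p = 0.774), beside 1.46. In AT4G08850, AT5G48430 and AT1G51805 the phyA differences were 0.0041, -0.11 and 0.039, beside WT steps of 1.04, 1.06 and 1.14. For AT3G22060, AT2G17740, AT5G48430 and AT1G51805 the phyA means in both shades lay below the array medians. Differences at such low signal can understate the change in RNA. The phyA step minus the WT step was below 0 in all 47 genes with all arrays, with a median of -0.92. Without the third arrays it was below 0 in 34 and above 0 in 13, with a median of -0.49 (0.059 in the 13 genes higher in shade, -0.93 in the 8 lower and -0.64 in the other 26). The WT step was chosen to be large, so these differences are given as values with no test.

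**Figure D4:**
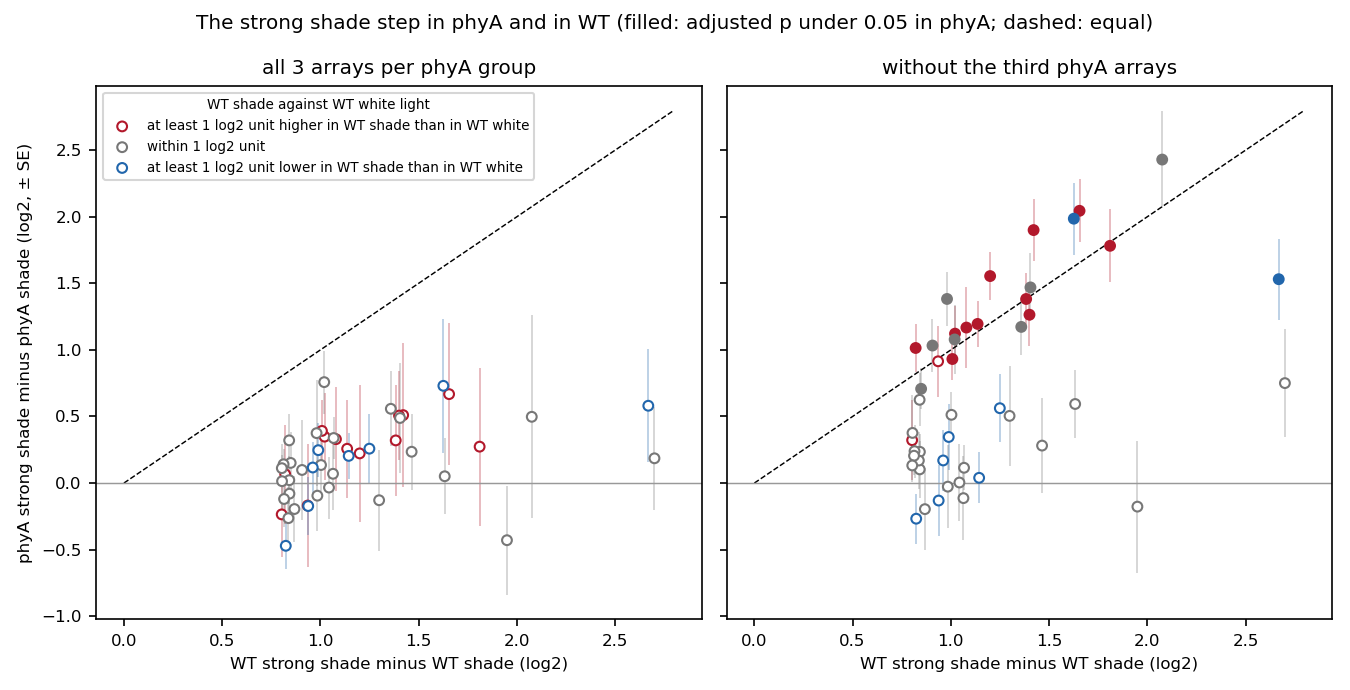
The strong shade minus shade difference of the 47 genes in phyA (vertical, log2 with the standard error of the fit) against that in WT (horizontal, log2), with all arrays on the left and without the third phyA arrays on the right. Filled points had adjusted p under 0.05 in phyA (0 on the left, 20 on the right), the dashed line marks equal steps, and colours mark the WT shade difference from white light.

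In white light the genotypes could be compared on arrays that had no part in the choice. limma called 0 of the 47 in phyA against WT, where 0.0747% and 0.0791% of all probe sets were called higher and lower (17 and 18 probe sets). At unadjusted p under 0.05 there were 566 probe sets higher and 973 lower. Among them was 1 of the 47, AT2G29340, with 6.78 and 6.76 in phyA white light, against 6.39 and 6.53 in WT white light. Its difference was 0.31 ± 0.139 (limma adjusted p = 0.719). Without the third phyA arrays 5 of the 47 were higher and 1 lower at unadjusted p under 0.05. They were among 779 and 1265 probe sets, and 0 of the 47 were called. The differences ran from -0.65 in AT1G19530 to 0.94 in AT3G22060, with a median of 0.078. AT3G22060 had 5.23 and 4.87 in phyA, against 4.35 and 3.88 in WT, groups that did not overlap (adjusted p = 0.77). AT1G19530 had 3.56 and 2.45 in phyA, against 3.82 and 3.50 in WT, with the phyA arrays more than 1 log2 unit apart. The SEs of these 2 differences were 0.472 in AT3G22060 and 0.563 in AT1G19530, and neither difference reached unadjusted p under 0.05 with all arrays.

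In strong shade the phyA mean was below the WT mean in 40 of the 47 genes, with a median difference of -0.72. All 3 phyA arrays lay below all 3 WT arrays in 23 genes (12.1% of all probe sets) and above in 1, AT3G45730 (14.6% of all probe sets). Because WT strong shade was chosen to be high, a lower phyA mean is favoured by the choice, and no test is given. The 23 were made up of 7 of the 8 genes lower in shade than in white light, 15 of the 26 others and 1 of the 13 higher in shade. AT3G22060 had the largest difference of means, with 3.02, 3.63 and 2.62 in phyA strong shade, against 5.44, 5.32 and 7.05 in WT strong shade. AT1G57770 had 3.07, 3.35 and 3.14 in phyA, against 5.72, 5.10 and 5.49 in WT, and AT4G16870, the pseudogene, had 3.01, 2.93 and 2.57, against 4.49, 4.77 and 5.10. On the other side, AT3G45730 had 7.50, 7.85 and 6.67 in phyA strong shade, against 5.91, 6.13 and 5.83 in WT strong shade, and 6.65, 6.84 and 7.36 in phyA shade, against 4.80, 4.93 and 5.11 in WT shade. Its phyA arrays were above all WT arrays in both shades. Without the third phyA arrays the phyA mean was below the WT mean in 33 of the 47, with a median difference of -0.58. In shade the phyA mean was above the WT mean in 29 of the 47, with differences from -0.96, near the limit of the choice, to 2.00 and a median of 0.30. Without the third phyA arrays it was above in 24 and the median was 0.0030.

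Signal strength differed among the genes and bears on the size of their differences. The array medians lay between 3.76 and 3.92. In WT strong shade 2 of the 47 genes had a mean below the array medians of that group, and in WT shade 15 had. In the phyA groups the number was 12 in strong shade, 14 in shade and 17 in white light. AT4G22470, AT2G17740, AT5G48430 and AT1G07050 had the lowest means over the 16 arrays, at 2.42, 2.53, 2.91 and 3.02, and differences of such dim probe sets can understate the change in RNA. At the other end, AT5G14120, AT1G23390, AT1G80380 and AT2G38870 averaged 9.32, 8.70, 8.46 and 7.94. AT5G14120 had 10.16, 10.30 and 10.20 in WT strong shade, against 9.45, 9.28 and 9.37 in WT shade, so its step of 0.85 was large beside the spread of its arrays.

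Genes with a symbol put names beside the pattern. Of 1557 such genes, 9 (0.578%) met the same conditions: THI2.2, a thionin, ATSPS4F, a sucrose-phosphate synthase, WRKY22, a transcription factor known from innate immunity, SD1-29, an S-domain receptor kinase, GAT1_2.1, a glutamine amidotransferase, CYP71B23, a cytochrome P450, SWEET2, a sugar transporter, HYH, a bZIP factor related to HY5, and ASPGB1, an asparaginase. A further 66 probe sets that met the conditions had several genes or none listed. WRKY22 had 5.97, 5.83 and 5.83 in WT strong shade, against 4.74, 3.79 and 5.00 in WT shade, and 6.35, 6.59 and 4.92 in phyA strong shade, against 5.15, 4.45 and 6.49 in phyA shade. THI2.2 had 8.92, 7.98 and 9.44 in WT strong shade, against 6.54, 6.94 and 6.80 in WT shade, and 6.03, 6.27 and 5.90 in phyA strong shade, against 6.31, 6.09 and 6.15 in phyA shade. The first followed AT1G25400 and AT4G37220 in having 2 high arrays and 1 low array in phyA strong shade, and the second lay between 5.90 and 6.31 in every phyA array under LED light. In phyA strong shade against phyA white light WRKY22, GAT1_2.1, CYP71B23 and ASPGB1 rose, THI2.2, ATSPS4F, SD1-29 and HYH fell, and SWEET2 stood at 0.42 ± 0.335 (limma adjusted p = 0.355). Without the third phyA arrays the other 8 kept their directions and calls, and SWEET2 rose too, at 0.87 ± 0.177 (adjusted p = 0.000739). Without the third phyA arrays WRKY22, GAT1_2.1, ASPGB1, SWEET2 and CYP71B23 were called higher in phyA strong shade than in phyA shade, CYP71B23 at 0.91 (adjusted p = 0.047).

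Likeness was measured as Pearson's r over the 16 arrays with the median profile of the 47 genes. For each array the median of the values centred on each gene's own mean was taken. Every array of a group was then given the mean of these medians over its group. The profile thus has 1 level per group and averages over the third phyA arrays. The group means of this profile stood at 0.0089 in phyA strong shade, -0.11 in phyA shade, -0.41 in phyA white light, 0.89 in WT strong shade, -0.25 in WT shade and -0.41 in WT white light. The 47 genes themselves correlated with it at -0.28 to 0.91, with a median of 0.64, so the group is not of 1 shape. Among the 9 symbol genes the highest values were 0.78 for SWEET2, 0.64 for CYP71B23, 0.63 for WRKY22, 0.60 for GAT1_2.1 and 0.55 for SD1-29. The other values were 0.51 for ASPGB1, 0.32 for THI2.2, 0.0016 for HYH and -0.090 for ATSPS4F. All come from arrays that share their 6 groups. Like the 47, the symbol genes were picked for a WT step of at least 0.8, and the profile peaks in WT strong shade. Positive values are therefore favoured by the choice, and the correlations are a description.

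Lists of known shade, phytochrome A signalling, low-energy, defence and senescence genes hold measured genes with a symbol, so none of them could be among the 47, and few of their entries had a probe set with 1 gene. Of 16 shade-induced genes 3 were measured, and all 3 rose in phyA strong shade against phyA white light: HAT2, a homeodomain factor, at 1.28, FHL, which helps to bring phytochrome A into the nucleus, at 3.90, and IAA29, an auxin response repressor, at 3.97. In WT strong shade against WT shade, where the 47 genes were high, FHL fell (-1.10 ± 0.225, limma adjusted p = 0.0383, where 0.391% of all probe sets were called lower), while HAT2 and IAA29 stood at -0.58 and -1.32 (adjusted p = 0.205 and 0.11). In the fit without the third phyA arrays all 3 fell in WT strong shade (adjusted p = 0.00594, 0.0119 and 0.0102 for FHL, HAT2 and IAA29), where 3.95% of all probe sets were called lower. Of 14 phytochrome A signalling genes FHL and HYH were measured, and HYH is 1 of the 9 symbol genes that meet the conditions of the 47, so its WT step of 0.87 is a description. All 4 measured dark and low-energy genes of 9, MCCA and IVD of leucine catabolism, AKINBETA1, a SnRK1 subunit, and PPDK, rose in phyA strong shade against white light, at 5.03, 4.77, 3.24 and 3.65. Their WT steps between the shades ran from 0.44 to 0.62, with 0 of the 4 called. In the fit without the third phyA arrays MCCA, AKINBETA1 and PPDK were called higher in WT strong shade (limma adjusted p = 0.0246, 0.0223 and 0.0343). Of all probe sets 2.3% were called higher there, and IVD had an adjusted p of 0.0546. The WT arrays and WT differences are the same in both fits, for these genes as for FHL, HAT2 and IAA29. Only the spread pooled over all groups became smaller, as in MCCA, with an SE of 0.312 over all arrays and 0.154 without the third phyA arrays. Without those arrays HAT2 fell and PPDK rose in phyA strong shade against phyA shade, at -0.63 ± 0.153 and 0.78 ± 0.2 (adjusted p = 0.0328 and 0.0429), and the calls of these lists against phyA white light stayed at 3 and 4 higher. Of 4 measured defence genes, OSM34 rose and THI2.2 fell in phyA strong shade against white light. OSM34 was already lower in phyA white light, at 4.17 and 4.73, than in WT white light, at 6.84 and 6.11 (limma adjusted p = 0.000726). Its strong shade means were 8.48 in phyA and 8.71 in WT. THI2.2 meets the same conditions as the 47, so its WT step of 2.02 is a description, and the other 3 were not called between the shades in WT. The 1 measured senescence gene of 6, WRKY53, was not called in these comparisons.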

How the data were processed

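RNA was measured on 16 single-colour Affymetrix arrays. The authors deposited probe set intensity values that, per the submitters' processing notes, came from RMA and affy, with no version stated in what was used here. The intensity values ran from 2.33 to 6167 and were read as linear, and their log2 was taken with no pseudocount, filter or further scaling. Background per probe set was not used here.

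The platform annotation gave 13513 of 22746 probe sets a single gene, 503 several and 8730 none, and 13436 of the 13513 matched the reference gene table; 13356 genes resulted, 11799 of them with only a locus tag. Coordinates and sequences are not used here, and gene order and chromosomes are those of TAIR10.1. The genes, lists and tests were chosen with earlier results of these data known.

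limma 3.58.1 in R 4.3.3 was fitted to all 16 arrays with 1 mean per group, Benjamini-Hochberg adjustment over all probe sets and a call at adjusted p under 0.05. For the 47 genes, tests were confined to phyA strong shade against phyA shade and against phyA white light, and phyA against WT in white light. Other differences are values, and the calls counted for the WT step between the shades are given only for scale. Listed genes that the conditions did not choose were also tested for WT strong shade against WT shade. Values after ± are the SE of a log2 difference. Genes were named by the size of the WT step, closeness to a threshold, size among calls, brightness, gene order and list membership, and others were named after their values had been seen. The fit was tested on simulated data for phyA strong shade against phyA shade. It recovered 92 of 100 changes of 1 log2 unit and 100 of 100 changes of 2 units, with 12 false calls. Noise was drawn separately for each probe set and array, so it held no shared deviation like that of the third phyA arrays. The number of arrays limits the precision. Alternatives were array weights, a trended or a robust variance, cyclic loess or median centring, a filter on the dimmest 40% of probe sets, only the groups compared, the replicate block, a log2 difference of at least 1, 1 probe set per gene, other choices of members, and leaving out arrays.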

Additional observations from a re-analysis of the deposited data

How the results depend on the processing

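With any single array left out, the calls among the 47 genes stayed at 0 for phyA strong shade against phyA shade (medians -0.022 to 0.39), ran from 26 to 34 for phyA strong shade against phyA white light (medians 0.25 to 0.54) and stayed at 0 for phyA against WT in white light (medians 0.043 to 0.14). The first comparison moved to 20 calls, all higher, without the third phyA arrays (both together), and also to 20 when in addition the genes were chosen from WT arrays alone, a combination added after seeing the data. Array weights left its calls at 0, with a median of 0.42. In white light the median became 0.13 after cyclic loess, against 0.078. With the replicate block 0, 30 and 0 genes were called in the 3 comparisons. Same-numbered arrays of different groups deviated together at correlations of -0.58 to 0.32, over 0.1 in 7 of 36 pairs. The lowest value was that of phyA shade array 3 with phyA strong shade array 3. Such deviations sum to 0 within each small group, so these correlations cannot decide whether same-numbered samples were handled together. AT3G62950, AT1G25400, AT1G22690, AT1G19540, AT4G37220 and AT1G66100 gained a call in the first comparison without the third phyA arrays, and the cause was not tested. The 8 genes with the largest changes in the second comparison kept direction and call in all 26 settings run. The genes that met the conditions numbered 58 on median-centred values, 47 of them those described. With the dimmest 40% of probe sets left out, 42 of the 47 remained. Background signal limits dim probe sets.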
